A study of Mus musculus with 3 samples.

Results

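Among the tdTomato-sorted cells of the mouse larynx, 347 carried a high load of Dcpp1, Dcpp2, Dcpp3 or Dmbt1 transcripts and no Trp63 transcript. They are called Dcpp/Dmbt1-high cells here, and their working label was submucosal gland acinar cells. They were chosen by measured values: in each member the unique molecular identifiers (UMIs, the counted transcript molecules) of these 4 genes made up at least 30 of every 10000 UMIs of the cell, and Trp63, the transcription factor of basal cells, had 0 UMIs. Of 60530 deposited barcodes, 49393 had 500 to 8000 genes with a UMI, between 1000 and 40000 UMIs in total and no more than 8% of them mitochondrial, and 126, 63 and 158 of these met the rule in libraries 1, 2 and 3. Values in threes are given in that library order throughout.

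The cells came from Lrig1CreERT2/+; ROSA LSL-tdTomato/+ mice, in which tamoxifen activates a Cre recombinase driven from the Lrig1 locus and thereby a red reporter. Each library was a pool of 10 larynges, 5 from males and 5 from females, taken 24 h after recombination and sorted for tdTomato. All animals shared these alleles and the tamoxifen. Wild type and ROSA-LSL-tdTomato/+ larynges were used to set the sort gates and gave no library, so the comparisons lie between groups of cells within the same 3 libraries.

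Submucosal glands lie beneath the airway surface and pass fluid, mucins and antimicrobial proteins to it through ducts. Serous acinar cells release proteins such as lactoferrin, lysozyme and lactoperoxidase, mucous acinar cells release gel-forming mucins, and both drive fluid through ion channels under nerve control. The Dcpp genes encode demilune cell and parotid proteins, small secreted proteins of rodent salivary and airway glands. Dmbt1 encodes a scavenger receptor glycoprotein of saliva and mucus that binds bacteria, Ltf encodes the iron-binding protein lactoferrin, and Scgb3a1 encodes a secretoglobin.

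The 3 Dcpp genes and Sbpl, which encodes a spermine-binding-protein-like secreted protein, lie within 74.4 kb of chromosome 17 in GRCm39. Dcpp1 runs from 24099850 to 24101827, Dcpp3 from 24136432 to 24138415 and Sbpl from 24172058 to 24174276 on the opposite strand. The GRCm39 annotation of Dcpp2, from 24099850 to 24119762, spans that of Dcpp1. Their promoters are shown because the Dcpp genes were part of the rule and Sbpl, their neighbour, was among the leading products of the members. The sequences are RefSeq windows of build GRCm38.p6, from 250 bases before to 50 after each start, written 5′ to 3′ on the strand of the gene. They cover chr17:23880626-23880925, chr17:23898472-23898771 and chr17:23917208-23917507 on the plus strand and chr17:23955224-23955523 on the minus strand. The capitals mark the letters TATAA.
Dcpp1: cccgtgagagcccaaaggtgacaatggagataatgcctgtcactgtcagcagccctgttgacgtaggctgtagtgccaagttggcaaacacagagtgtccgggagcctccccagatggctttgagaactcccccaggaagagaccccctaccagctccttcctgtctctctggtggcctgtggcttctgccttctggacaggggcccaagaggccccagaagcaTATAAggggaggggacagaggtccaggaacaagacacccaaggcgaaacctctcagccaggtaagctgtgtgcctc
Dcpp2: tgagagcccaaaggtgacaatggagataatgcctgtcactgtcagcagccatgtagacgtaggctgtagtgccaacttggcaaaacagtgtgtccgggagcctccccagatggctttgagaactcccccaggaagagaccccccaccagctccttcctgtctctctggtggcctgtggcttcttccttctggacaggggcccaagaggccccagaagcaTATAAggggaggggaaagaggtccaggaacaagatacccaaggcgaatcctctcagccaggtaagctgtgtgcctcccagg
Dcpp3: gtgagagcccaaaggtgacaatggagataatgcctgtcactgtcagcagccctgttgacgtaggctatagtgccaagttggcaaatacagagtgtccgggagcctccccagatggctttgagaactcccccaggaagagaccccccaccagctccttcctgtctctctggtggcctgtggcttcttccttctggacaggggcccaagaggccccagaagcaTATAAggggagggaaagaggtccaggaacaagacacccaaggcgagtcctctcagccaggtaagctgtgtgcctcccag
Sbpl: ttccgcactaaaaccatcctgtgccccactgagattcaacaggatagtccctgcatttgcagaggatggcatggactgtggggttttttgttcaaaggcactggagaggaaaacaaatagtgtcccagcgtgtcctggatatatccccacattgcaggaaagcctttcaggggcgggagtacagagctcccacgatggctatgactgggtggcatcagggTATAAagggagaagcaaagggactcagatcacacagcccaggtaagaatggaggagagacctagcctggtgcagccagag

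Counted from the start, TATAA began at -26 in Dcpp1, -31 in Dcpp2, -29 in Dcpp3 and -30 in Sbpl. On either strand it was found in 24.9% of 32851 promoter windows of the same length. None of the 4 windows held CAGCTG, TGACGTCA or TGTTTAC on either strand, letters found in 16.3%, 1.79% and 3.65% of all windows. Aligned with gaps counted as differences, the Dcpp windows were 93.8% (Dcpp1 and Dcpp2), 95.1% (Dcpp1 and Dcpp3) and 96.4% (Dcpp2 and Dcpp3) identical, and each was between 50.1% and 52.5% identical to that of Sbpl. The last 300 bases of the transcripts, where 3′ reads fall, were 92.0%, 92.3% and 97.0% identical for the same Dcpp pairs. How the counting split reads between these near-identical copies is uncertain, so the 3 genes are mostly given as a sum, called Dcpp below.

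Dmbt1 admitted most of the cells. It passed the threshold alone in 274 of the 347 (79.0%), Dcpp alone in 32, each of them in 38, and only their sum did in 3. No Dcpp UMI was found in 187 cells (53.9%). Just inside the threshold, within 10% above it, lay 17 cells, and 25 cells with no Trp63 UMI lay within 10% below it. Another 95 cells passed the threshold but had Trp63 UMIs and were left out, 55 of them with a single one. In library 2 those left-out cells held 59.7% of all Dcpp UMIs of the library, against 1.64% in library 1 and 15.9% in library 3.

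The members made up 0.884%, 0.837% and 0.572% of the cells within limits (95% Wilson intervals 0.743 to 1.05%, 0.655 to 1.07% and 0.490 to 0.668%), a mean of 0.764% ± 0.168 (SD, n = 3 libraries). These are shares of cells sorted on a reporter of Lrig1, and the intervals cover counting error only. The median UMI count of the members was 9626.5, 9679 and 10992, and at least 1 UMI of Epcam, the epithelial adhesion molecule, was found in 290 of them. The 36730 other Epcam-positive cells had medians of 14157, 18165 and 12948. None of the member barcodes was a member in a second library, 7 were also barcodes of another library, and 7 members resembled simulated doublets.

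The label was checked with its 6 markers, 4 of which the rule had used. Levels are given as CPM, the UMIs of a gene in every 1000000 UMIs summed over a group of cells in a library. They are 3′ counts and are not divided by transcript length. Ltf reached 46025, 63229 and 71215 CPM against 1440.1, 958 and 876 in the other Epcam-positive cells. Scgb3a1, the other marker outside the rule, reached 56965, 56755 and 43126 CPM against 1412, 900.3 and 550.0. The summed levels of the members lay above those of the other cells in each library, although 24 members had 0 Ltf UMIs and 40 had 0 Scgb3a1 UMIs. Most of those other cells had Trp63 UMIs. Some secretory cells outside the gate, given with the product sets, also held much Scgb3a1, so this comparison does not set members apart from such cells.

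Transcription factors of gland cells gave a mixed picture. Sox9 was at 117, 111 and 204 CPM against 20.3, 11 and 14.9, and Bhlha15, the factor that builds the secretory apparatus of serous cells, at 13.8, 23.7 and 36.4 CPM against 0.393, 0.25 and 0.389. Sox10, a factor of gland acini and myoepithelium, was at 24.4, 9.46 and 16.8 CPM against 0.27, 0.13 and 0.224, from 81 UMIs in 41 of the 347 cells. Lpo, which encodes lactoperoxidase of serous cells, came from 103 UMIs in 32 cells. Of the 109 members richest in Bpifa1, described with the product sets, 2 had a Sox10 UMI and 0 a Lpo UMI. These sparse markers were thus detected in part of the cells only. At levels this low a cell that expresses a gene can show no UMI, so these counts do not give the share that express it. The cells are named by the rule's genes.

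The values that chose the cells varied widely from cell to cell. Dcpp ranged from 0 to 8236 UMIs per 10000 with a median of 0, while Dmbt1 ranged from 0 to 596 with a median of 69.8. The 22 cells with Dcpp at 1000 or more per 10000 (4, 3 and 15 by library) held 92.5% of all Dcpp UMIs of the members, and in the highest cell Dcpp made up 82.4% of the UMIs. Dcpp3 gave over 50% of the Dcpp UMIs in all 22 cells, Dcpp1 gave under 1% in 11 and Dcpp2 under 1% in 10. By library, Dcpp3 gave 69.4%, 69.7% and 82.9% of the Dcpp UMIs of the members, beside 89.2%, 41.8% and 82.1% in an Epcam-negative reference, so the split differed between libraries. This reference is the 6693 cells with 0 Epcam UMIs and at least 3 UMIs, together, of Col1a1, Col1a2, Col3a1, Pecam1, Cdh5, Ptprc and Pax7, genes of fibroblasts, endothelium, immune and satellite cells.

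That reference gives the background from free RNA for shares of cells with a UMI. An Ltf UMI was found in 93.1% of the members and 30.3% of reference cells, and a Scgb3a1 UMI in 88.5% and 43.4%. The shares were 46.1% and 16.5% for a Dcpp UMI and 94.5% and 6.59% for a Dmbt1 UMI. The rule had chosen members on Dcpp and Dmbt1, so their gap describes that choice. The reference cells had median UMI counts of 9806, 9828 and 7604. The share of all UMIs of a gene that lay in members was 88.1%, 33.2% and 66.2% for Dcpp and 59.9% over all libraries for Dmbt1. For Ltf and Scgb3a1 it was 32.5% each, so most of their UMIs came from other cells.

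**Figure D1:**
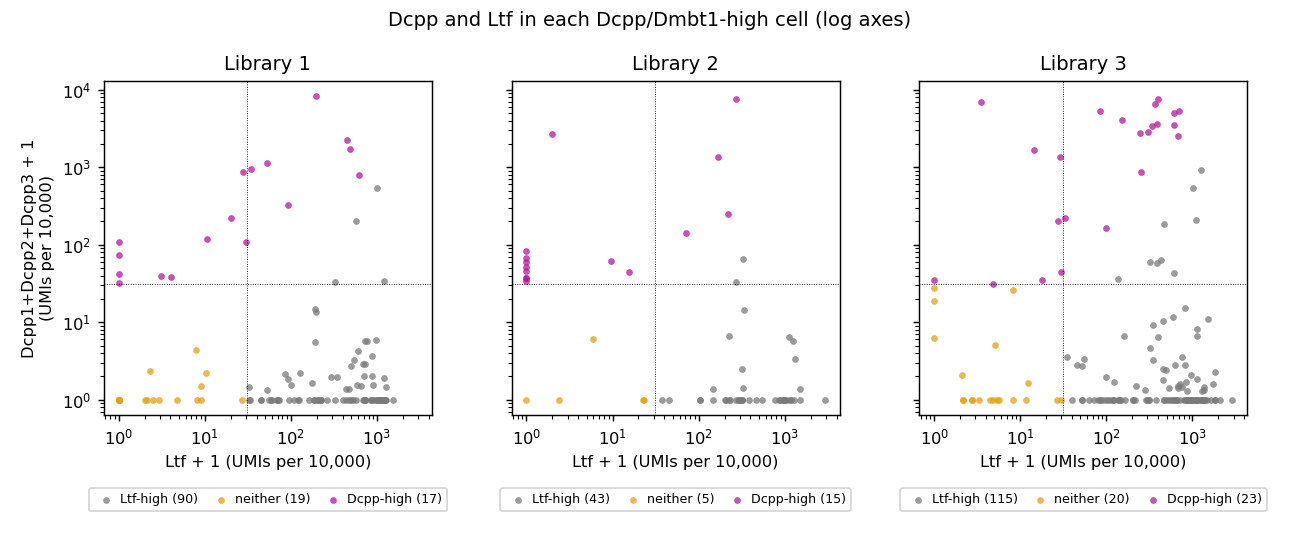
Each point is a Dcpp/Dmbt1-high cell, with Ltf + 1 on the x axis and Dcpp1+Dcpp2+Dcpp3 + 1 on the y axis, in UMIs per 10000 on log axes, 1 panel per library; dotted lines mark 30 UMIs per 10000. Most of the 248 Ltf-high cells lie along the bottom, and the 22 cells at 1000 or more Dcpp UMIs per 10000 lie at the top; in libraries 1 and 3 the range goes on below them without a break, while in library 2 no cell lies between 251.1 and 1359.

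Against the other Epcam-positive cells, the members were richest in secreted gland products and poorest in basal cell genes. This contrast was used by the rule, so its values are a description. A gene was counted as higher where the log2 ratio of CPM, with a pseudocount of 1 CPM, was at least 1 in all 3 libraries, and its CPM at least 10 in the members of all 3; lower genes were counted likewise, with the CPM minimum in the other cells. A gene that passed the filter only through the group where it is high had to differ, so the counts below describe and support nothing. Of 7240 genes past the filter, 331 (4.57%) were higher, and of 9403 genes, 1501 (16%) were lower. The median log2 ratio of the 9660 genes that passed either filter was -0.67. With totals that leave out the gland product genes and Muc5b, that median was -0.24, and 542 genes were higher and 833 lower.

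Of the 41 measured genes on the list of serous and demilune products, 21 passed a filter, 17 were higher and 0 lower, with a median log2 ratio of 5.06. The rule's own genes, Dcpp1, Dcpp2, Dcpp3 and Dmbt1, are among the 17 and enter this median. Of the 41, 9 had 0 UMIs in the members of all libraries, Bpifa2 and Obp2a among them, which over 4507333 UMIs allows a level of up to 0.666 CPM. The largest ratios outside the rule's genes lay in Lipf, Sbpl and Bpifb1. Lipf, which encodes gastric lipase, was at 22220, 44415 and 26135 CPM against 135, 8.48 and 183, a mean log2 ratio of 8.90 ± 2.86 (SD, n = 3). Sbpl was at 15297, 17935 and 37481 CPM against 105, 56.7 and 94.7, 8.02 ± 0.76 on the log2 scale. Bpifb1, an antimicrobial lipid-binding protein of airway secretions, was at 4178, 7953 and 28920 CPM against 70.2, 10.2 and 189. Its log2 ratio, 7.53 ± 1.82, and that of Lipf had the widest spread over libraries among the named genes that were higher. These are summed levels, and they came from part of the members. Of 347 members, 211 had 0 Lipf UMIs and 206 had 0 Bpifb1 UMIs. In library 2, 3 of 63 members had Lipf at 30 or more UMIs per 10000 and 51 had 0.

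Protease inhibitors and granule proteins followed. Wfdc18, a whey acidic protein family inhibitor, was at 1309.5, 2932 and 7994 CPM against 54.6, 28.9 and 48.4, and its relative Wfdc12 at 744, 247 and 82.1 against 9.45, 1.22 and 1.92. Gp2, a glycoprotein of zymogen granules, was at 1129, 1697 and 1048 CPM against 33.6, 25.8 and 13.5. A2ml1, a broad protease inhibitor, was at 6119, 6768 and 5018 CPM against 293, 222 and 111. The mean log2 ratios of these 4 genes were 6.17 ± 1.44, 5.93 ± 1.01, 5.73 ± 0.61 and 4.93 ± 0.55. Lyz2 and Pigr, the lysozyme and the transporter of secretory antibodies, were higher too, at 16501, 18489 and 16210 against 1448, 969.9 and 747 CPM and 1129.7, 845 and 861 against 95.8, 48.2 and 32.5 CPM.

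Mucous cell genes were higher as well in the summed counts of the members. Most of the comparison cells had Trp63 UMIs, so this does not set members apart from mucous cells outside the gate. Of 25 listed genes for mucins and their glycosylation, 12 passed a filter, 9 were higher and 1, Itln1, was lower, with a median of 2.77. Muc5b, the gel-forming mucin of glands, was at 1967, 2601 and 1044 CPM against 93.7, 39.3 and 36.8, a log2 ratio of 5.06 ± 0.85. Of 347 members, 200 had 0 Muc5b UMIs and 44 had 30 or more per 10000. Tff2, the trefoil peptide of mucous neck cells, counted on the product list above, was at 12178, 12333 and 4758 CPM against 654, 297 and 210.3, 4.69 ± 0.60 on the log2 scale. Creb3l1, a membrane-bound factor of secretory cells, was at 253, 218 and 198 CPM against 11.4, 6.17 and 7.17, and Spdef, the factor of mucous cells, at 50.7, 66.2 and 53.2 against 3.79, 3.1 and 2.67.

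Of 30 gland transcription factors, 26 passed a filter, 11 were higher and 1, Tbx1, was lower, with a median of 0.45. Etv1 was at 365, 193 and 334 CPM against 34.8, 30.6 and 38.3, and Xbp1, the regulator of secretory protein folding, at 488, 528 and 633 against 107, 123 and 115. Sox10 was not counted because its level in library 2 was under 10 CPM. On the list of the secretory pathway and unfolded protein response, 10 of the 54 measured genes were higher and 0 lower, among them Sec61b, a part of the translocation channel, at 409, 379.7 and 514 CPM against 152, 139 and 191, and the signal peptidase subunit Sec11c at 348, 356 and 528 against 81.3, 61.2 and 68.6. That list's median over the 50 genes that passed was 0.62.

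Of 34 listed genes of fluid secretion, 26 passed a filter and 9 were higher, beside 4.57% of all genes. Another 5 were lower, near the 16% of all genes that were lower, and the median over those that passed was 0.28. Among the higher ones, the calcium-gated potassium channel Kcnn4 was at 83, 42.6 and 134 CPM against 3.68, 1.72 and 3.41, and Chrm3, the muscarinic receptor for the nerve signal to glands, at 509, 447 and 445 against 224, 166 and 158. Aqp5, the apical water channel of acinar cells, was at 628, 390.3 and 981 CPM against 448, 341 and 600.2 and did not meet the rule. Among the lower ones were Aqp3, Aqp4 and Adrb1. Aqp3, a basal cell water channel, was at 136, 30.8 and 116 CPM against 2266, 2234 and 3039.7.

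Other named genes that were higher were the mucosal chemokine Ccl28 (log2 ratio 4.63 ± 0.26), the lectin-like gene Lman1l (4.83 ± 0.47), Ralyl (4.48 ± 0.12), Fgl2 (4.46 ± 0.59), the claudin Cldn2 (4.42 ± 0.77), the phosphodiesterase Pde3b (4.40 ± 0.70) and 2310057J18Rik (6.67 ± 1.00). For Fgl2 and Pde3b the Epcam-negative reference was at 91.8, 46.1 and 39.8 and 48, 47.1 and 54.5 CPM, beside members at 143, 74.5 and 68.1 and 73.8, 97 and 73.7. Ccl28 was at 114, 91.1 and 116 CPM in members and 0.377, 0.409 and 0.472 in that reference. Each gene counted as higher had to lie above the other Epcam-positive cells in all 3 libraries. Their agreement over libraries was thus fixed by the choice of genes.

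**Figure D2:**
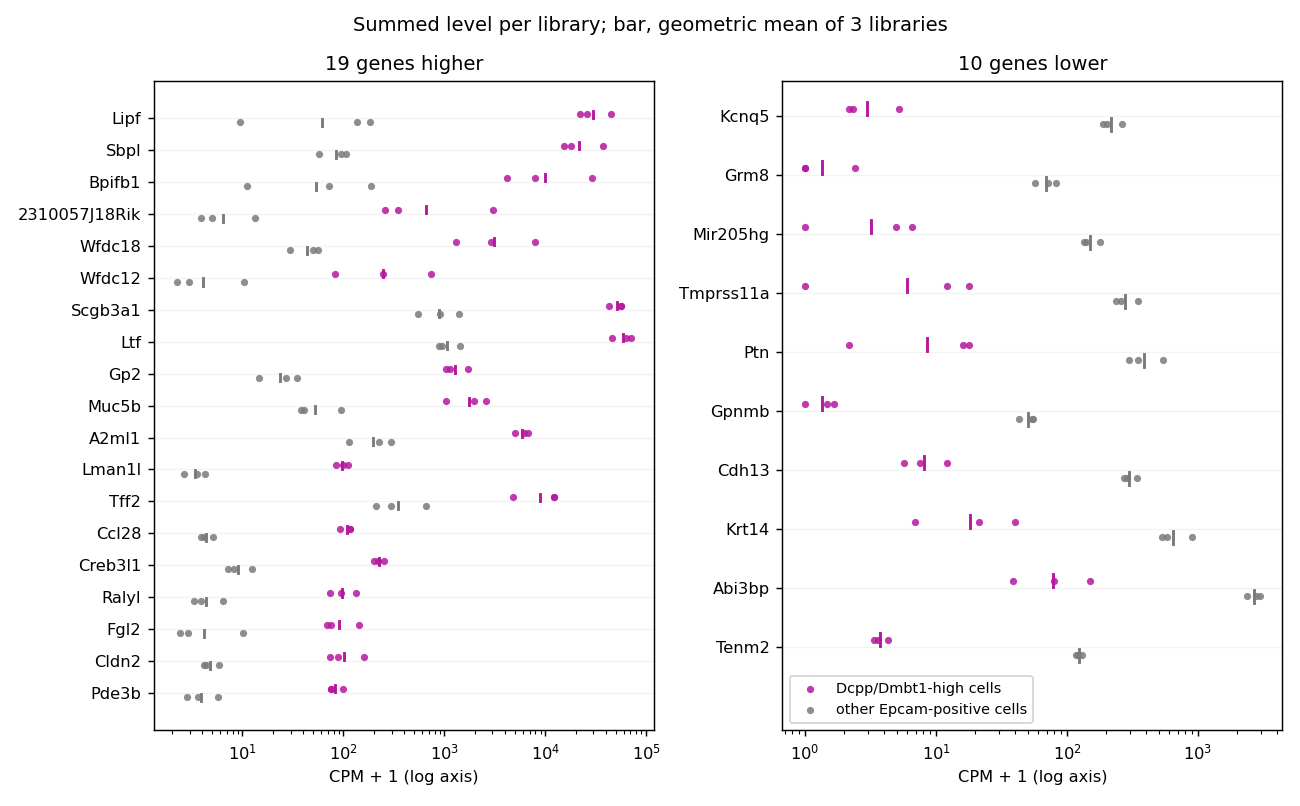
CPM + 1 on log axes for 19 named genes with the largest and 10 with the lowest mean log2 ratio between Dcpp/Dmbt1-high cells and other Epcam-positive cells; points are the 3 libraries and bars their geometric mean. Purple and grey points do not overlap for any of these genes, which were chosen for their large ratios. Lipf has the widest spread of the higher genes.

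Basal cell genes formed the other pole. All 12 basal list genes were lower, with a median of -4.64. One of them, Trp63, was at 0 by the rule. Of the 36730 comparison cells only 5165 also had 0 Trp63 UMIs, so the rule set members mostly against cells with this basal factor. Low basal genes were thus partly fixed by the choice of cells. Krt14 was at 20.4, 5.91 and 39.2 CPM against 576, 526 and 890.4 and Col17a1, a hemidesmosome collagen, at 7.25, 4.73 and 13.5 against 213, 202 and 269. The named genes with the lowest ratios included the potassium channel Kcnq5 (-6.18 ± 0.46), the glutamate receptor Grm8 (-5.69 ± 0.54), Mir205hg (-5.55 ± 1.37), the protease Tmprss11a (-5.53 ± 2.16) and the growth factor Ptn (-5.49 ± 1.41). Gpnmb (-5.22 ± 0.48), the cadherin Cdh13 (-5.21 ± 0.63), Krt14 (-5.16 ± 0.96), Abi3bp (-5.11 ± 0.96) and Tenm2 (-5.04 ± 0.12) completed them. Grm8 and Gpnmb had means of 0.466 and 0.375 CPM in members, under the floor of 0.666 CPM. The pseudocount of 1 CPM thus set the size of their ratios. Genes of ciliated cells, 8 of 8 that passed, were lower too. Against the 5165 other Epcam-positive cells that also had no Trp63 UMI, 147 genes were higher in place of 331.

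The next lists are to be read beside the -0.67 median of all genes, the 16% of genes that were lower and the shift of that median with the scaling. Most of the comparison cells also had Trp63 UMIs, which the rule barred in members. Of 14 measured Lrig and ErbB genes, 5 were lower and 2 higher, with a median of -1.07 over the 10 that passed. Lrig1, which restrains ErbB receptors, was at 36.2, 41.4 and 31.3 CPM against 79.1, 89.1 and 90.9, and Egfr at 54.7, 55.6 and 66.2 against 319.9, 288 and 311. The 2 higher genes were the receptor Erbb4, at 173, 84 and 132 CPM against 48.4, 27 and 22.2, and the ligand Egf, at 27, 16.6 and 16.3 against 2.63, 2.83 and 2.33. Of 16 Notch pathway genes, the receptor Notch1 and the ligands Jag1, Jag2 and Dll1 were lower and 0 genes were higher, with a median of -0.79 over the 12 that passed, close to that of all genes. Notch1 was at 7.9, 2.37 and 5.6 CPM against 82.5, 77.7 and 89.5 and Jag2 at 5.27, 2.37 and 8.4 against 125, 128 and 139.7.

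Genes of tissue dissociation, such as Fos and Egr1, were lower in 7 of the 17 that passed, with a median of -1.35. Fibroblast, neuroendocrine and myoepithelial markers were scarce in the members. The 10 fibroblast genes summed to 101, 60.3 and 217 CPM in members, 918, 329 and 812 in other Epcam-positive cells and 13060, 8653 and 14798 in the reference. Neuroendocrine genes summed to 6.59, 2.37 and 1.4 CPM, with 7 of 10 at 0 in all libraries. Of the myoepithelial list, Acta2 was at 2.63, 0 and 3.27 CPM, while Myh11, Oxtr and Actg2 had 0 UMIs (up to 0.666 CPM). Krt5, Krt14 and Krt17 of that list were lower, and they are basal list genes too, whose low level the choice of cells partly fixed. Gland duct genes were not scarce. Of 18, 14 passed a filter, with a median of 0.52. Krt18, Krt23, Elf5, Atp6v1b1, Cldn3 and Cldn10 were higher, and Krt7, Krt19 and Cldn4 lower.

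In most cells a secreted product was the most abundant transcript. The gene with the most UMIs in a cell was 1 of 8 secreted products in 297 of 347 cells (85.6%). Bpifa1, the surface-active antimicrobial protein of airway fluid, led in 72 cells, Ltf in 71, Scgb3a1 in 50, Lipf in 27, Dcpp3 in 21, Tff2 in 20, Sbpl in 19 and Bpifb1 in 17. The nuclear RNA Malat1 led in another 26. Of these, 11 were among the 55 Dcpp-high and 7 among the 248 Ltf-high cells described below. Where it led, Lipf made up a median of 27.8% of the UMIs of the cell, Dcpp3 28.6% and Bpifa1 21.0%. Bpifa1 led in 43, 11 and 18 cells by library and Dcpp3 in 4, 3 and 14, so the libraries differed in their mix.

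Products fell into combinations. At 100 or more UMIs per 10000, a threshold chosen after the values were seen, Ltf was found in 234 cells, Scgb3a1 in 181, Bpifa1 in 109, Dmbt1 in 101, Sbpl in 68, Lipf in 61, Wfdc18 in 48, Tff2 in 45, Bpifb1 in 44, Dcpp in 42 and Muc5b in 24. Lipf and Sbpl were found together in 51 cells, 83.6% of the Lipf cells and 75% of the Sbpl cells. Bpifb1 was found with Lipf in 40 of its 44 cells (90.9%), and Muc5b with Tff2 in 19 of its 24 (79.2%).

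Other products rarely met. None of the 109 Bpifa1 cells reached 100 UMIs of Lipf or of Bpifb1 per 10000, and 1 reached it for Sbpl. A count of 0 in these 109 pooled cells allows a share of up to 2.75%, a limit that covers counting error only and leaves out the spread between libraries. Of the 42 Dcpp cells, 19 (45.2%) also reached it for Sbpl, its neighbour on chromosome 17, but 1 for Bpifb1. Those 19 were 27.9% of the Sbpl cells, a smaller share than the 75% that also reached it for Lipf. Ltf did not separate them: it was found in 82 of 109 Bpifa1 cells (75.2%), 30 of 61 Lipf cells (49.2%) and 25 of 42 Dcpp cells (59.5%). A product that takes a large share of a cell's UMIs leaves less for every other gene, so these shares are not independent of each other.

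**Figure D3:**
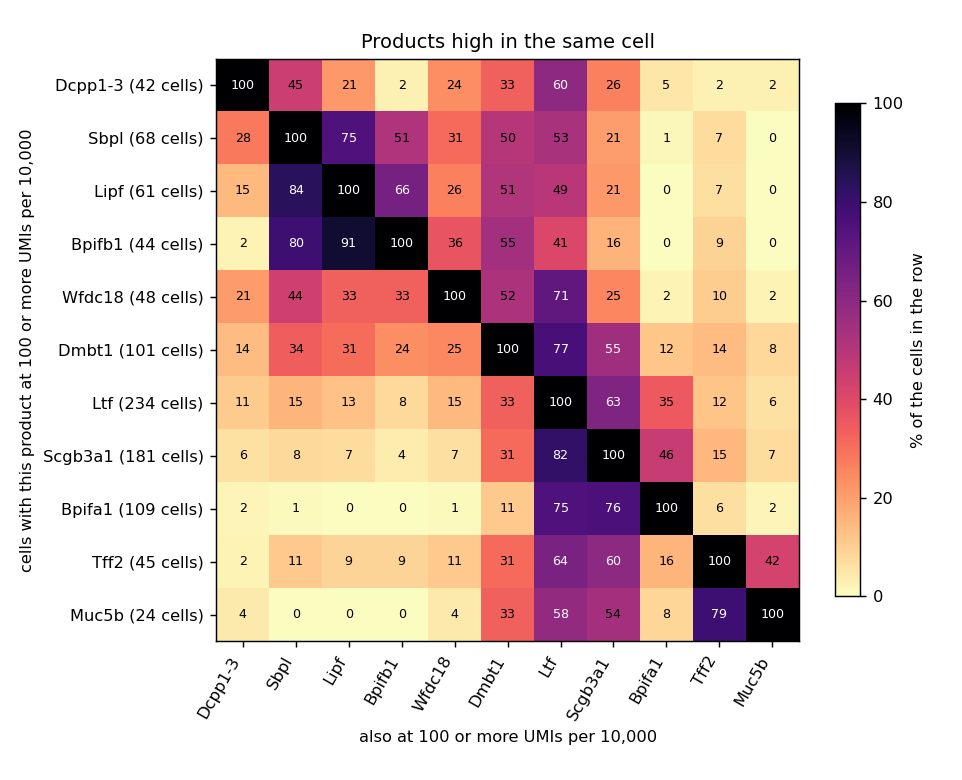
Each row is a product at 100 or more UMIs per 10000 and each column a second product; the value is the percentage of the row's Dcpp/Dmbt1-high cells that also reach it for the column. Lipf, Sbpl and Bpifb1 share cells, as 90.9% of Bpifb1 cells also hold Lipf, while 0 of 109 Bpifa1 cells do.

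The combinations differed in genes that had not been used to form them. They were taken as 4 overlapping sets of 42 Dcpp cells (14, 5 and 23 by library), 78 Lipf or Sbpl cells (25, 6 and 47), 109 Bpifa1 cells (66, 15 and 28) and 50 Tff2 or Muc5b cells (18, 15 and 17). Another 105 members were in none. The sets were chosen after values were seen, so no test is given. Sets of 5 or 6 cells in library 2 rest on few UMIs.

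The lactoperoxidase gene Lpo was at 87.2, 147 and 94 CPM in the Dcpp set and 81.1, 90.8 and 123 in the Lipf or Sbpl set. It had 0 UMIs in the Bpifa1 set, whose 1451677 UMIs put the floor of 3 counts at 2.07 CPM, and 0 in the Tff2 or Muc5b set, where the floor was 4.99 CPM. Sox10 was at 151, 24.5 and 38 CPM in the Dcpp set, 54.1, 24.8 and 30.8 in the Lipf or Sbpl set, 5.74, 0 and 0 in the Bpifa1 set and 22, 0 and 20.8 in the Tff2 or Muc5b set. In libraries 1 and 3 both genes were thus higher in the first 2 sets than in the Bpifa1 set. In library 2 Lpo was too, while Sox10 in the Dcpp set was a single UMI, under the floor of 3 counts. Pooled over libraries, Sox10 had 37, 32 and 5 UMIs in the Dcpp, Lipf or Sbpl and Bpifa1 sets.

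Fluid secretion genes differed between the sets as well. Slc12a2, the basolateral sodium, potassium and chloride cotransporter that loads acinar cells with chloride, was at 1274, 1365 and 1262 CPM in the Tff2 or Muc5b set and 163, 143 and 122 in the Bpifa1 set. In the Lipf or Sbpl set it was at 1001, 74.3 and 542 CPM. Tacr1, the receptor for the neuropeptide substance P, went the other way. It was at 180.2, 279 and 147 CPM in the Bpifa1 set and 61.5, 99.1 and 20.8 in the Tff2 or Muc5b set. In the Dcpp set it was at 0, 0 and 2.24 CPM. Etv1 was at 59.7, 61.2 and 59.4 CPM in the Bpifa1 set and 1226, 501 and 873 in the Tff2 or Muc5b set. It was also at 1078, 289 and 801 CPM in the Lipf or Sbpl set and 71.4, 565 and 541 in the Dcpp set.

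Some cells of the Bpifa1 set carried genes of club cells, the secretory cells of the airway surface. Scgb1a1, their defining secretoglobin, was at 5732, 11379 and 528 CPM there, and at 54.1, 24.8 and 18.5 in the Lipf or Sbpl set. That sum came from few cells: 18 of the 109 had Scgb1a1 at 30 or more UMIs per 10000 and held 98.6% of its UMIs, and the median of the set was 0.408 per 10000. Scgb3a2, another secretoglobin, was at 2836, 2354 and 1317 CPM there and 19.3, 16.5 and 12.3 in the Lipf or Sbpl set. It reached 30 or more UMIs per 10000 in 30 of the 109 cells, and the cytochrome P450 gene Cyp2f2 did in 83, against 3 of the 78 Lipf or Sbpl cells. The 167 Scgb1a1-high cells outside the gate (71, 28 and 68) held Bpifa1 at 165510, 174140 and 157730 CPM and Scgb3a1 at 37197, 51300 and 22451, while Dmbt1, which the rule bounds outside the gate, was at 575, 746 and 393. In library 2 the Tff2 or Muc5b set also had Scgb1a1, at 7229 CPM, beside 43.9 and 0 in libraries 1 and 3; 99.1% of the Scgb1a1 UMIs of that set lay in 1 cell.

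The members were also divided by Dcpp and Ltf. Dcpp-high cells had Dcpp at 30 or more UMIs per 10000 and above Ltf (17, 15 and 23 cells, 55 in all). Ltf-high cells had Ltf at 30 or more and above Dcpp (90, 43 and 115, 248 in all), and 44 cells were neither. Both groups were chosen on these UMIs, so their contrast is a description. Depth moved with the division. The median UMI count was 2472, 1545 and 11209 in Dcpp-high cells against 13961, 19164 and 11916 in Ltf-high cells, and an Epcam UMI was found in 41.2%, 40.0% and 87.0% against 91.1%, 97.7% and 89.6%. Of the Dcpp-high cells, 18 had under 2000 UMIs, 9 of them among the 15 of library 2. Mitochondrially encoded genes summed to 18275, 10355 and 14031 CPM in Dcpp-high against 33563, 24002 and 23999 in Ltf-high cells. The gland product list with Muc5b had medians of 275, 92.4 and 3729 UMIs per 10000 against 2816, 2187.5 and 2017.

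More genes were counted as higher in Ltf-high than in Dcpp-high cells, groups that held 3656223 and 492506 UMIs. In the Dcpp-high cells of library 2 a single UMI already exceeded the minimum of 10 CPM. Low values there, and the ratios that use them, thus rest on few UMIs. Of 7208 genes past the filter, 475 (6.59%) were higher in Ltf-high cells, and of 4196 genes, 47 (1.12%) in Dcpp-high cells. The median log2 ratio of Dcpp-high over Ltf-high cells over 7364 genes was -0.63. The counts moved with single libraries: without library 1, 2 or 3 they were 1103, 870 and 1059 in Ltf-high and 144, 105 and 312 in Dcpp-high cells, since agreement of fewer libraries was then asked. Cells with Dcpp at 1000 or more taken as the Dcpp-high group, an alternative added after the data were seen, gave 1699 and 11.

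Among the 14 named genes higher in Ltf-high cells, 6 had 0 UMIs in the Dcpp-high cells of all libraries. Tacr1 had 0 UMIs in Dcpp-high cells and was at 137, 184 and 132 CPM in Ltf-high cells. Against a floor of 3 counts over the 492506 UMIs of the Dcpp-high cells, it was at least 23.7-fold higher in the pooled Ltf-high cells. On the same floor the metalloproteinase Tll1 was at least 22-fold higher, the transporter Atp13a5 16-fold, the complement factor Cfb 14.7-fold, the sulfotransferase Sult1c1 12.2-fold and Fstl4 7.41-fold. These floors cover counting error only. Fstl4 was the 1 named Ltf-high gene whose direction turned, to 0.19, when the 25% of cells with the highest Dcpp relative to Ltf were set against the 25% with the lowest.

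Sftpd, the collectin that marks bacteria for clearance, was at 0, 0 and 3.03 CPM in Dcpp-high and 289, 241 and 344 in Ltf-high cells. Bpifa1 was at 17297, 342 and 296 against 108550, 90632 and 33852 CPM, a log2 ratio of -5.84 ± 2.83 (SD, n = 3), and the lysozyme gene Lyz1 had a ratio of -5.47 ± 2.04. Cyp2a5, a cytochrome P450 of club cells, was at 37.6, 18 and 9.08 against 1447, 998 and 466 CPM, -5.49 ± 0.25 on the log2 scale. The membrane mucin Muc1 was at 0, 0 and 3.03 against 93, 80.9 and 50.8 CPM. Its relative Muc4 had a ratio of -5.37 ± 1.79, the fucosyltransferase Fut9 -5.45 ± 1.66 and the sulfotransferase Chst9 -6.09 ± 3.83. In Dcpp-high cells Muc4 and Fut9 had means of 3.14 and 3.03 CPM, under the pooled floor of 6.09 CPM, and Chst9 45.4 ± 78.6 CPM. The size of these ratios thus rests on the pseudocount.

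By list, 5 of 9 club genes that passed (Scgb1a1, Scgb3a2, Cyp2f2, Cyp2a5 and Cbr2) were higher in Ltf-high and 0 in Dcpp-high cells, with a median of -1.91. The 10 club genes summed to 2304, 3379.8 and 3255 CPM in Dcpp-high and 17597, 15089 and 16176 in Ltf-high cells, and to 12377, 10523 and 11486 in other Epcam-positive cells. Of 12 mucous genes that passed, 6 were higher in Ltf-high and 0 in Dcpp-high cells, and of 20 serous products 6 and 4. The division itself had used Ltf among the 6 and the 3 Dcpp genes among the 4, which leaves Scgb3a1, Lyz1, Lyz2, Bpifa1 and Wfdc12 on the side of Ltf and Lpo on that of Dcpp. Of 27 gland factors that passed, 2 were higher in Ltf-high cells, near the 6.59% of all genes, and 0 in Dcpp-high cells. They were Foxc1 and Tfcp2l1, at 109.8, 184 and 232 against 9.41, 18 and 39.3 CPM for the latter.

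Among genes higher in Dcpp-high cells, Lpo was at 84.6, 108 and 127 CPM against 11.2, 6.63 and 14.5 in Ltf-high cells, a log2 ratio of 3.23 ± 0.54. The groups did not overlap, and genes were named here for differing in this direction in all 3 libraries. Kcnma1, the large-conductance calcium-gated potassium channel, was at 743, 89.9 and 139 CPM against 101, 11.9 and 64.1 (2.26 ± 1.00). 2310057J18Rik was at 1204, 5214 and 5784 CPM against 213, 5.3 and 2768 (4.42 ± 4.63), and the lipocalin Mup6 at 169, 36 and 60.5 against 1.6, 5.3 and 3.02 (4.17 ± 1.75), the latter from 53 UMIs in 19 of the 347 cells.

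The other 10 named genes included the keratins Krt5, Krt13 and Krt17 and the cell cycle inhibitor Cdkn1a. Their log2 ratios were as follows: Cdkn1a (3.94 ± 1.02), Krt13 (3.35 ± 1.36), Htra3 (2.80 ± 1.63), Krt5 (2.68 ± 0.84), Anxa8 (2.64 ± 1.30), Krt17 (2.56 ± 0.97), Sfn (2.45 ± 0.75), Sphk1 (2.40 ± 1.56), Tuba1a (2.36 ± 1.27) and Ccdc3 (2.15 ± 0.88). The 12 basal genes summed to 1242, 791 and 1809 CPM in Dcpp-high, 637, 277 and 728 in Ltf-high and 9268, 9245 and 14620 in other Epcam-positive cells, and the 13 squamous genes to 301, 198 and 257, 54.5, 30.5 and 86.5 and 964, 661 and 1313. Genes of other cells moved with the groups as well. The 10 muscle satellite cell genes summed to 207, 216 and 24.2 CPM in Dcpp-high, 9.62, 9.28 and 6.05 in Ltf-high cells, and to a mean of 42.1 in other Epcam-positive cells. The 10 ciliated cell genes summed to 75.2, 773 and 182 CPM in Dcpp-high against 42.5, 23.9 and 35.7 in Ltf-high cells, and the 10 fibroblast genes to 132, 126 and 405 against 103, 57 and 193. The part of other cells' RNA in this result was not tested. With Dcpp-high restricted to cells at 1000 or more Dcpp UMIs per 10000, the direction turned for 2310057J18Rik, Cdkn1a, Krt13, Htra3, Krt17 and Tuba1a, and with each cell thinned to 2000 UMIs it turned for Krt13, Krt17, Sfn and Tuba1a. Lpo, Kcnma1, Mup6, Krt5, Anxa8, Sphk1 and Ccdc3 kept their direction in every alternative run.

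**Figure D4:**
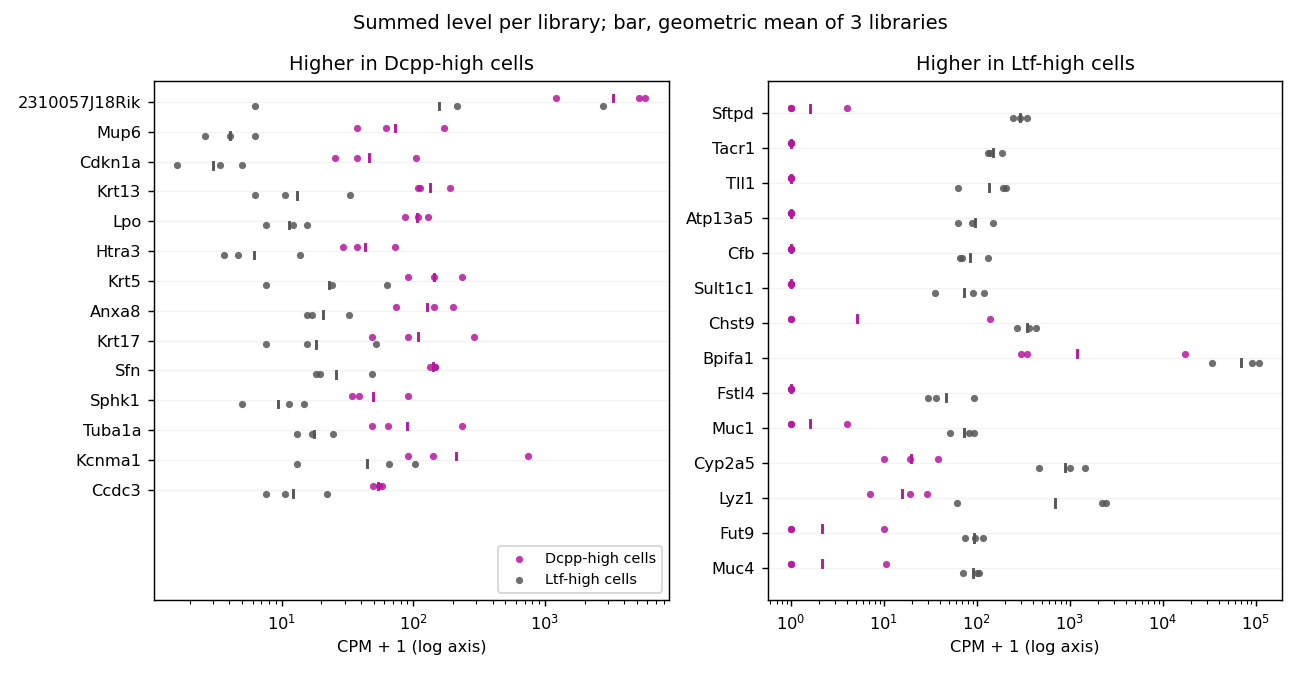
CPM + 1 on log axes for 14 named genes with the largest log2 ratio in each direction between Dcpp-high and Ltf-high cells; points are the 3 libraries. Tacr1 lies at 0 CPM in the Dcpp-high cells of all 3 libraries and between 132 and 184 CPM in Ltf-high cells, and Lpo points do not overlap.

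A UMI of Lrig1, the gene that drove the reporter, was found in a smaller share of members than of other Epcam-positive cells. At least 1 Lrig1 UMI was found in 31, 18 and 49 members (24.6%, 28.6% and 31%, mean 28.1% ± 3.23), 65 of those 98 cells having a single UMI. In other Epcam-positive cells the share was 54.4%, 66.7% and 56.7%, and in the Epcam-negative reference 26.2%, 42.0% and 34.4%. The reference cells had passed the same sort and are not known to lack Lrig1, so their share is no background level for this gene. With every cell thinned to 2000 UMIs, which left 311 members and 35858 other Epcam-positive cells, the shares were 7.14%, 8.0% and 4.70% (6.61% ± 1.71) against 15.0%, 16.2% and 15.9% (15.7% ± 0.619). The difference was 9.12 ± 1.85 percentage points (SD, n = 3), and it had the same sign in each library. The cells with no Trp63 UMI among the other Epcam-positive cells lay between, at a mean of 12.2% ± 1.17 after thinning (40.9% before). The secretory cells outside the gate had a lower mean than the members after thinning and a higher one before, at 4.38% ± 2.02 after thinning (32.8% before) in 198 Muc5b-high cells (at least 10 Muc5b UMIs per 10000) and 3.17% ± 3.28 (31.9% before) in the Scgb1a1-high cells. In library 3 their thinned shares, 6.67% and 6.56%, lay above that of the members, so no order between these groups is drawn. An Lrig1 UMI was found in 9 of 55 Dcpp-high and 84 of 248 Ltf-high cells, groups whose depth differed as given above. After thinning, which left 37 and 238 cells, the shares were 10%, 0% and 0% against 8.14%, 10% and 5.36%. The difference was -4.50 ± 5.98 percentage points (SD, n = 3), within the spread between libraries and with the opposite sign in library 1. All these cells had passed a sort on a reporter of Lrig1, which bears on each share.

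**Figure D5:**
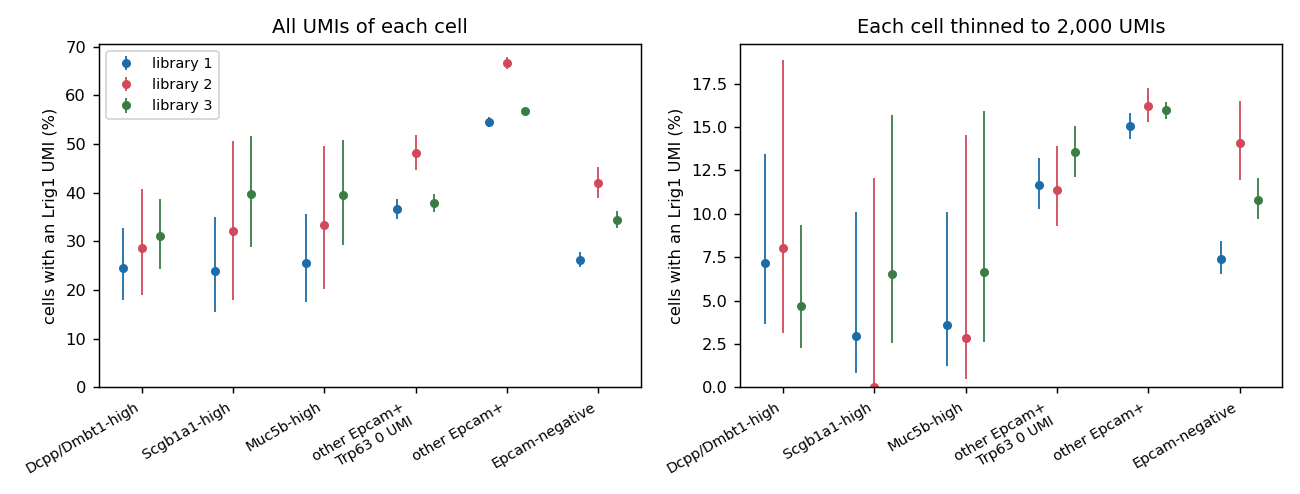
Percentage of cells with at least 1 Lrig1 UMI in each library, before and after thinning each cell to 2000 UMIs, for Dcpp/Dmbt1-high cells and the groups named on the x axis. After thinning, members lie at 4.70 to 8.0% and other Epcam-positive cells at 15.0 to 16.2%.

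Members with and without an Lrig1 UMI were compared by edgeR's quasi-likelihood test on summed counts, with the library as a block. Of 7654 genes tested, 1 (0.0131%) passed an adjusted p of 0.05, and 568 had an unadjusted p under 0.05. The gene was Dcpp2, which the rule had used and whose split from its near-identical copies is uncertain, so its values are a description, and no gene outside the rule was called in this fit. Dcpp2 was at 3.28, 23.4 and 3.93 CPM in Lrig1+ against 9264, 6991 and 8733 CPM in Lrig1- members. It rested on few cells. Of 20509 Dcpp2 UMIs, 14 lay in Lrig1+ members, and the 9 cells with 100 or more Dcpp2 UMIs (2, 1 and 6 by library) included 0 with an Lrig1 UMI. A count of 0 in 9 pooled cells allows a share of up to 33.3%, a limit for counting error only.

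Lrig1+ members were deeper, with median UMI counts of 20082, 20742 and 15860 against 5800, 7131 and 7595. Against Lrig1- members matched on total UMIs, edgeR called 0 genes and 457 had an unadjusted p under 0.05. In the comparison without matching, Scgb1a1 had a log2 fold change of -3.12 (edgeR adjusted p = 0.0646). It passed the threshold with likely doublets removed, as 1 of 2 genes, and with at least 2 Lrig1 UMIs against 0, as 1 of 15 genes on libraries 1 and 3 alone. Of the 8 Notch pathway and 7 Lrig and ErbB genes tested, 0 were called, with medians of 0.34 and 0.36 beside 0.0029 over all genes. Without library 1, 2 or 3 the count was 25, 70 and 3. DESeq2 called 2 genes, Dcpp2 and Reg3g.

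Each pool held male and female larynges, so members with Xist UMIs were compared with members with UMIs of Y-linked genes. At least 2 UMIs of one kind and 0 of the other were found in 84 Xist+ cells (39, 15 and 30) and 77 Y+ cells (22, 15 and 40), and the 5 genes that formed these groups (Xist, Ddx3y, Uty, Kdm5d and Eif2s3y) were left out. UMIs of both kinds were found in 24 members. The edgeR test called 0 of 6385 genes (0%), with 349 at an unadjusted p under 0.05. DESeq2 called 1 gene, Dcpp3, which the rule had used. Without library 2 or 3 edgeR called 32 and 5 genes, and 0 without library 1.

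Of the 4 X-linked genes known to escape inactivation, 0 passed the threshold. Kdm6a, a histone demethylase, was at 163, 160.2 and 148 CPM in Xist+ against 93.5, 100.4 and 78.9 in Y+ members (log2 fold change 0.81, SE 0.20, edgeR adjusted p = 0.333), with no overlap between the groups. The median log2 fold change of the 4 escape genes was 0.59 beside -0.01 over all genes tested. Among the products, Dcpp3 was at 2194, 25.3 and 5389 CPM in Xist+ against 6501, 51.9 and 12386 in Y+ members. Of its near-identical copies, Dcpp1 was at 1142, 0 and 1506 against 27.4, 10.38 and 325 CPM, and Dcpp2 at 214, 12.6 and 1400 against 392, 17.3 and 18. Dcpp3 was lower in Xist+ members in all 3 libraries, Dcpp2 in libraries 1 and 2 and Dcpp1 in library 2 alone. None of the 3 passed the edgeR threshold. Bpifa1, lower in 2 of 3 libraries, had a log2 fold change of -1.77 (edgeR adjusted p = 0.889) and Scgb3a1, higher in 2 of 3, of 0.94 (0.932). Neither passed the threshold.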

How the data were processed

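UMI counts per gene and barcode were deposited by the authors, who made them with Cell Ranger 8.0.1 on GRCm39 (mm39) from 10x Genomics 3′ v4 libraries; the paper's filters and doublet removal are not applied in these counts. The study's methods word the quality limits as 500 to 8000 UMIs and 1000 to 40000 genes; they were read here the other way round, as 500 to 8000 genes and 1000 to 40000 UMIs. As worded, they would leave 15895 cells and 104 members (39, 17 and 48) in place of 347. The 3 libraries hold 172640635, 116450244 and 353728717 UMIs within these limits. The library, a pool of 10 larynges, was the replicate. The members and gene lists were chosen with earlier results of these data known, and the named genes by fixed rules of size: the 6 markers; the 20 highest (at least 50 CPM in members) and 10 lowest ratios against other Epcam-positive cells, without the rule's genes; the 15 in each direction (at least 20 CPM) between Dcpp-high and Ltf-high cells, without Dcpp and Ltf; genes past a test; and members of the lists. A few genes that these rules name are not reported here.

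Counts were summed per library and group. edgeR 4.0.16 (R 4.3.3) tested Lrig1+ against Lrig1- and Xist+ against Y+ members on sums of at least 10 cells, with a library block. It used TMM scaling, filterByExpr, two-sided p-values and Benjamini-Hochberg adjustment over all genes tested. The paired sums share a pool, so p-values rest on how far the difference within a pool varies between pools. Deviations of paired sums correlated at 0.20, 0.08 and 0.37 for Lrig1 and 0.15, 0.10 and 0.34 for Xist. On simulated data, 157 of 200 genes changed 4-fold were recovered in the Lrig1 design (7571 genes) and 160 of 200 in the Xist design (6207 genes). Those counts had the same dispersion for every gene and no library effect, and genes with few counts were not changed. The rates therefore do not give the power for gland products, such as Bpifb1 with an SE of 2.03 in the Xist test. Doublets were marked by nearest neighbours among simulated doublets at 0.4% per 1000 barcodes and kept in the main values. Alternatives were other gates, scalings, pseudocounts and filters, DESeq2 1.42.0, thinning to 2000 UMIs and leaving out each library.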

Additional observations from a re-analysis of the deposited data

How the results depend on the processing

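The share of Dcpp/Dmbt1-high cells, 0.764%, was 1.57% with a gate at 10 and 0.264% at 100 UMIs per 10000, 0.948% with Trp63-positive cells kept and 1.07% without quality limits; leaving out a library gave 0.705 to 0.861%. The Lrig1+ share, 28.1%, was 24.0% at the gate of 100, 10.2% at 2 or more Lrig1 UMIs and 6.61% after thinning (26.6 to 29.8% without a library). Genes higher than in other Epcam-positive cells numbered 147 against Trp63-negative cells and 542 without gland products in the totals (369 to 400 without a library). Lower genes numbered 833 with those totals, 898 with a pseudocount of 10 CPM and 2463 without the filter (1879 to 2032 without a library).

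Genes higher in Dcpp-high cells, 47, numbered 15 at the gate of 100, 107 between the highest and lowest 25% of cells, 116 without gland products, 23 with the larger pseudocount, 97 without the filter and 105 to 312 without a library. Under alternatives chosen after seeing the data they numbered 113 (mean over cells), 31 (cells with 2000 or more UMIs), 11 (Dcpp at 1000 or more) and 158 (Dcpp under 1000). Genes higher in Ltf-high cells, 475, numbered 224 by the 25% groups, 965 after thinning, 254 with the larger pseudocount, 1353 without the filter, 1699 and 316 with Dcpp at 1000 or more and under it, and 870 to 1103 without a library. Named genes kept their direction in all other alternatives, except that with Dcpp at 1000 or more the log2 ratio of Dcpp-high over Ltf-high cells was -1.09 for 2310057J18Rik, -0.49 for Cdkn1a, -0.43 for Krt13, -0.70 for Htra3, -2.13 for Krt17 and -2.54 for Tuba1a. After thinning it was -0.67 for Krt13, -2.24 for Krt17, -0.72 for Sfn and -1.76 for Tuba1a. At the gate of 100 it was -0.41 for Htra3, -0.45 for Krt17 and -0.77 for Tuba1a. In cells with 2000 or more UMIs it was -0.43 for Tuba1a, and by the 25% groups 0.19 for Fstl4. The cause was not tested. Of the other values for named genes, 621 counted as unchanged, 143 moved by more than the spread between libraries and 1, Dcpp2, lost its call with matched depth. Unchanged meant a move under that spread or, for 11 values of Dcpp2 in the Lrig1 test, a call that was kept.

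The Lrig1 test called 2 genes with DESeq2, 100 without the filter on low counts, 13 and 9 at gates of 10 and 100 (the latter on libraries 1 and 3 alone), 2 without likely doublets, 0 with matched depth, 15 at 2 or more UMIs (also on libraries 1 and 3 alone) and 3 to 70 without a library. The Xist test called 1 gene with DESeq2, 80 without the filter, 1 at the gate of 10 and 0 to 32 without a library; at the gate of 100 it could not be fitted. Without the library block the calls stayed at 1 and 0. The pooled UMIs of the Dcpp-high cells put the floor of 3 counts at 6.09 CPM, and the floor within a single library is higher. Each SD rests on 3 libraries.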
